A study of Mus musculus with 6 samples.

Results

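The comparison described here sets brain from NestinCre control mice against brain from Flox control mice, on 4 of the 6 arrays of the series. NestinCre control mice carried the Nestin-Cre transgene and wild-type Pofut1. Flox control mice were Pofut1 flox/flox and carried no Cre. Both groups therefore keep Pofut1, and they differ in the transgene, in the floxed allele with the DNA linked to it, and in whatever differed between the dissections. Each group has 2 arrays, and the mice of both groups were 2 months old and of strain C57/Bl6. The other 2 arrays are Pofut1 knockout brain, which is Nestin-Cre with Pofut1 flox/flox, so it shares the transgene with one control and the floxed allele with the other. How many animals gave the RNA of a replicate is not stated in the labels, so each p-value measures the spread between arrays, which may be technical in part. The comparison covers all 45037 probe sets of the array other than its controls. The arrays were placed in their groups by label alone.

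Nestin-Cre places Cre recombinase under nestin regulatory sequence, which is active in neural progenitors, so that floxed DNA is cut in most neurons and glia that descend from them. A Cre line and a floxed line are each made and bred separately. A targeted allele usually keeps a stretch of chromosome from the embryonic stem cells in which it was made, and a transgene sits at its own insertion site. Littermates are the usual remedy. The labels do not say whether these mice were littermates. Whole brain holds many regions and cell types, and nearby tissue such as pituitary can be taken with it. In a bulk sample, fewer cells of a type and less RNA per cell cannot be told apart.

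Values below are log2 of the deposited intensity, so a difference of 1 is 2-fold, and a positive difference means higher in NestinCre control. Array medians lay between 7.32 and 7.36. Pairs of control arrays had correlations of 0.9898 to 0.9947. Neuronal Snap25 (13.03 to 13.13 on the control arrays), oligodendrocyte Mbp (13.26 to 13.38) and astrocyte Slc1a2 (12.74 to 12.80) were near the top of the scale on every control array. Xist and Eif2s3y marked NestinCre control replicate 2 and 1 knockout array as male and the remaining 4 as female. All 14 spiked bacterial bio control probe sets were highest on NestinCre control replicate 1, by 0.39 to 0.69 over the next array.

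No probe set separated the controls after adjustment. By limma, 0 of 45037 probe sets (0%) had an adjusted p under 0.05. The smallest adjusted p was 0.216. At an unadjusted p under 0.05, 2340 probe sets (5.2%) were higher in NestinCre control and 2353 (5.22%) were lower. At an unadjusted p under 0.01, 1172 probe sets (2.6%) differed in either direction. The median size of the difference between the 2 group means was 0.088, against 0.092 between the NestinCre control arrays and 0.100 between the Flox control arrays. A difference of at least 2-fold was seen for 96 probe sets higher and 29 lower in NestinCre control. Of these, 28 higher and 14 lower probe sets had an unadjusted p under 0.01.

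The kinds of probe set did not divide evenly between the directions. Taking the brightest probe set of each of 18193 named genes, 379 genes (2.08%) were higher and 1286 (7.07%) lower at an unadjusted p under 0.05. At an unadjusted p under 0.01, 351 of these genes (1.93%) differed in either direction. The median gene stood at -0.04, and 64.2% of genes were below 0. Probe sets with no gene symbol in the platform annotation went the other way. Of these 9160, 1093 (11.9%) were higher and 180 (1.97%) lower, with a median of 0.04. They also made up 50 of the 96 probe sets that were at least 2-fold higher, and 3 of the 29 that were at least 2-fold lower. The remaining probe sets of named genes were even, with 4.95% higher and 5.1% lower.

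This divide was widest at middle brightness. Probe sets were put into 4 equal classes by mean brightness. In the third class, probe sets without a symbol had a median difference of 0.20, with 22.2% higher and 3.63% lower. The brightest probe sets of named genes in that class had a median of -0.11, with 2.59% higher and 12.5% lower. Relative to the mean of the 4 control arrays, the medians of the probe sets without a symbol in that class were 0.04 and 0.14 on the NestinCre control arrays and -0.13 and -0.05 on the Flox control arrays. They were 0.23 and 0.00 on the knockout arrays. Both Flox control arrays were thus below both NestinCre control arrays, and the knockout arrays, not part of this comparison, reached from near the mean of the controls to above them. Without NestinCre control replicate 2 the count of higher probe sets without a symbol was 660, and without Flox control replicate 1 it was 712. Without NestinCre control replicate 1 the count of lower named genes was 767. The split by kind of probe set was chosen after the values were seen.

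**Figure D1:**
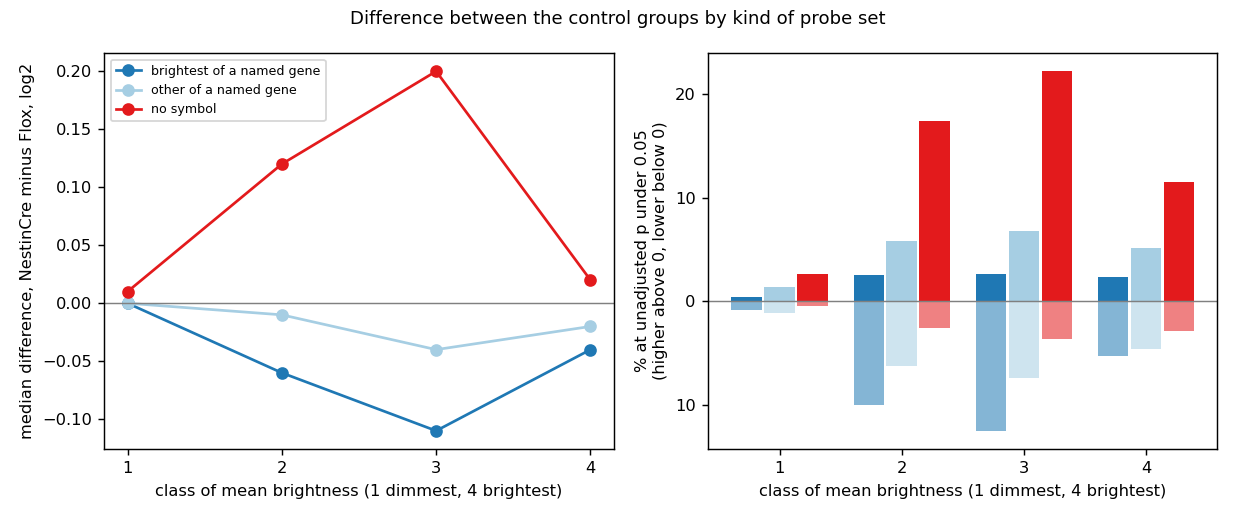
Left, the median log2 difference of NestinCre control minus Flox control (y axis) by class of mean brightness (x axis, 1 dimmest) for 3 kinds of probe set. Right, the percentage of each kind at an unadjusted p under 0.05, with higher in NestinCre control above 0 and lower (pale) below 0; probe sets without a symbol reach 22.2% higher in the third class, where the brightest probe sets of named genes reach 12.5% lower.

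The transgene itself could not be read. The array's 4 cre probe sets detect P1 phage cre added to each hybridization as a control, and they lay at 13.42 to 14.24 on every array, Flox control included. Pofut1, which adds O-fucose to the EGF-like repeats of Notch receptors, was 9.84 and 9.77 on the NestinCre control arrays and 9.95 and 9.81 on the Flox control arrays. Its difference was -0.08 (SE 0.09, adjusted p = 0.837 by limma). The groups overlapped, and the knockout arrays were below both, at 9.25 and 9.44. Nes, which encodes nestin, was also within its spread, at 6.86 and 6.74 against 7.03 and 6.73.

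Most Notch target genes and progenitor genes were a little below 0, without any adjusted call. Of 12 receptors and ligands, 1 was lower at an unadjusted p under 0.05, the ligand-like Dll3 (6.87 and 6.73 against 7.25 and 6.97), and the median was 0.03. Of 14 Notch target genes, 11 were below 0 and 3 were lower at that threshold, with a median of -0.15. Of all genes, 64.2% were below 0 and 7.07% lower at that threshold, with a median of -0.04. Heyl, a transcriptional repressor induced by Notch, was 7.01 and 6.83 in NestinCre control and 7.51 and 7.36 in Flox control, a difference of -0.51 (SE 0.10). The knockout arrays were lower still, at 6.18 and 6.29. Hes5 differed by -0.33 (SE 0.17), with 7.70 and 7.45 against 8.04 and 7.77. Nrarp, a feedback inhibitor of Notch, differed by -0.26 (SE 0.14), with 10.12 and 10.03 against 10.14 and 10.52, and its knockout values of 7.91 and 7.82 lay far below both. Leaving out 1 control array at a time gave 1 to 4 lower Notch target genes. Without either NestinCre control array the count was 1. Of 19 stem and progenitor genes, 2 were lower at the unadjusted threshold, the intermediate progenitor factor Eomes at -0.29 (SE 0.05) and Prom1 at -0.18 (SE 0.06). Without Flox control replicate 2 that count was 5, and without NestinCre control replicate 1 or without Flox control replicate 1 it was 1.

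Pofut1 lies on chromosome 2, and differences were denser around it than elsewhere. Among the 100 measured genes nearest to it, 50 on each side, 17 were lower and 2 higher at an unadjusted p under 0.05, against 7.07% and 2.08% of all genes, and 9 genes (9%) had an unadjusted p under 0.01. On the other chromosomes 1.92% of 16632 genes reached the latter. At the level of all probe sets, 8.5% within 50 genes had an unadjusted p under 0.01. The share was 4.19% from 51 to 150 genes away, a zone set after the values were seen, 1.64% on the rest of chromosome 2 and 2.2% on other chromosomes. Probe sets of the same gene are each counted there. By gene, the share was 4 of 200 (2%) from 51 to 150 genes away and 1.28% on the rest of chromosome 2. The density by gene, which counts only the brightest probe set, was thus raised only within 50 genes. Probe sets with a 2-fold difference or more and an unadjusted p under 0.01 lay elsewhere. They numbered 0 of 200 within 50 genes, 3 of 406 from 51 to 150 genes away and 14 of 31935 on other chromosomes. The count of 9 genes fell to 3 without NestinCre control replicate 2 and to 2 on the female arrays alone. Here and below, the female arrays alone hold 1 NestinCre control array and give the same differences as leaving out NestinCre control replicate 2. They leave 1 residual degree of freedom, so lower counts there do not measure an effect of sex. Neighbouring genes are not independent, and no test was made of this density.

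The largest difference of the whole comparison was a probe set of Rbm39, an RNA-binding splicing factor, 59 genes from Pofut1. It read 9.45 and 9.13 in NestinCre control and 6.01 and 6.20 in Flox control. Both knockout arrays were at the Flox control level, with 6.43 and 6.19. The difference was 3.18 (SE 0.15), 9.07-fold, with an adjusted p of 0.216 by limma. The other 11 probe sets of the gene ran from -0.55 to 0.89 and were divided. Another 3 were higher at an unadjusted p under 0.05 without overlap, the largest at 10.52 and 10.33 against 9.39 and 9.68. A pair were lower at that threshold, by -0.55 and -0.49. The brightest, at 12.42 and 12.53 against 12.46 and 12.39, differed by 0.05 (SE 0.07). The adjusted p of the probe set with the largest difference fell to 0.005 with dim probe sets left out, to 0.00728 with an intensity trend and to 0.000874 with a robust fit besides, and Rbm39 was the only named gene called under all 3.

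Epb41l1, the brain form of protein 4.1, lies 64 genes from Pofut1. One of its probe sets was 9.28 and 9.68 in NestinCre control against 11.07 and 11.03 in Flox control. The knockout arrays read 10.99 and 11.34, beside Flox control. The difference was -1.57 (SE 0.18). A brighter one of its 3 probe sets was also lower, at 10.41 and 10.97 against 11.53 and 11.42, and the brightest overlapped between the groups, at 12.31 and 12.43 against 12.31 and 12.47. Commd7, 5 genes away, was 9.0 on both NestinCre control arrays against 9.81 and 9.77, with knockout at 9.80 and 9.49. Its other probe set did not follow. Mapre1, which encodes the microtubule plus-end protein EB1 and lies 7 genes away, had 3 of 5 probe sets on the higher side and 2 on the lower. The one that differed most was 9.88 and 9.89 against 8.71 and 9.11, and the knockout arrays were again near Flox control, at 9.14 and 8.95.

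Further from Pofut1, at 87 genes, lies Rprd1b, a regulator that binds the tail of RNA polymerase II. The dimmer probe set that named it read 8.59 and 8.73 against 7.36 and 7.51, with a knockout mean of 8.06 between the controls. Its other 2 probe sets overlapped, and the brightest was 9.86 and 9.88 against 9.89 and 9.79. Nearer to Pofut1, Myh7b, a myosin heavy chain 42 genes away, was 7.23 and 7.02 against 7.92 and 8.02, with knockout at 7.67 and 7.94. Cep250, a centrosome linker protein 51 genes away, was 6.70 and 6.52 against 5.89 and 5.70, with knockout at 5.75 and 5.79. Myh7b and Cep250 each have 1 probe set, and in both genes the control groups did not overlap. Smaller lower values lay within 50 genes of Pofut1, on either side. They belonged to the tRNA-modifying Cdk5rap1 (-0.45), the protein C receptor Procr (-0.58) and glutathione synthetase Gss (-0.47). The ribosome factor Eif6 (-0.42), Ninl (-0.51) and Nrsn2 (-0.38) were also lower. For Gss (7.81 and 7.86) and Ninl (6.33 and 6.52) the knockout arrays were nearer to NestinCre control. Knockout means were between the control means but nearer to NestinCre control for Procr (6.66, between 6.40 and 6.98) and Eif6 (10.57, between 10.38 and 10.80). Nrsn2 (10.89, between 10.77 and 11.15) was placed likewise. For Cdk5rap1 the knockout mean of 9.32 was nearer to Flox control (9.51) than to NestinCre control (9.06). The knockout arrays were thus on the Flox control side for some of these genes and on the other side for others.

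**Figure D2:**
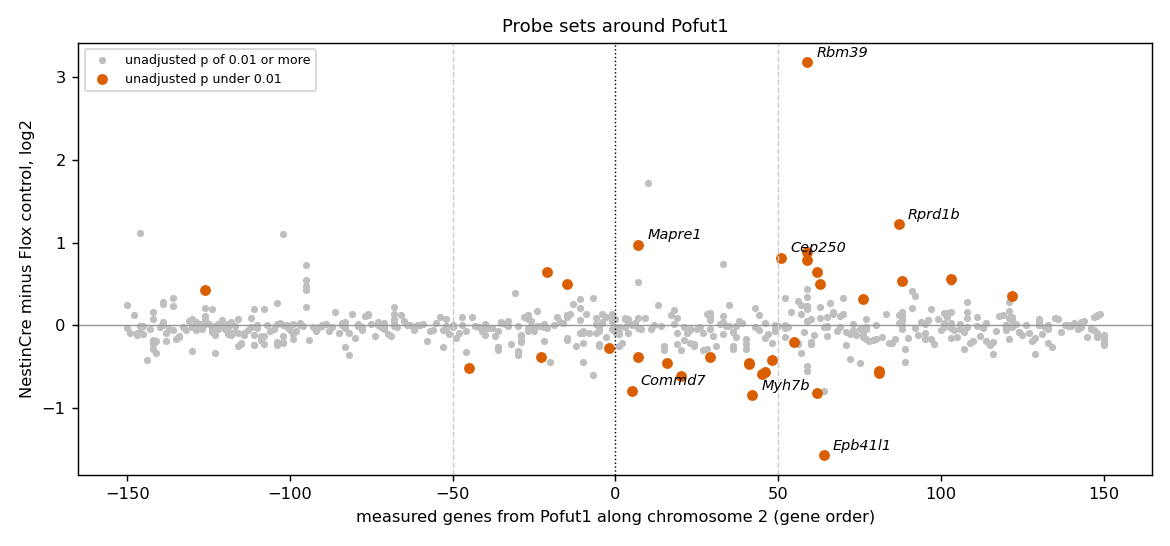
Each point is 1 probe set, with its place in gene order along chromosome 2 relative to Pofut1 (x axis, measured genes) and its log2 difference of NestinCre control minus Flox control (y axis). Orange points have an unadjusted p under 0.01, dashed lines stand 50 genes to each side, and Rbm39 at 3.18 and Epb41l1 at -1.57 are the extremes.

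Along all chromosomes, the 5 separate stretches of 20 neighbouring genes with the most genes at an unadjusted p under 0.01 were taken. The stretch from Pigu to Cpne1 near Pofut1 held 6. On chromosome 10, from Uhrf1bp1l to Ntn4, there were 5. Ntn4, a netrin of basement membranes, was 7.60 and 7.45 against 8.81 and 8.74, and the ciliary gene Cfap54 was 7.63 and 7.61 against 8.57 and 8.92. On chromosome 13, from AW495222 to Polk, there were also 5. There the brightest probe set of F2r, the thrombin receptor, was 9.48 and 9.49 against 10.34 and 10.49, and the DNA polymerase gene Polk was 7.97 and 7.96 against 8.25 and 8.34. Chromosome 14 held 4 from Dnase1l3 to Il3ra, with Fhit at 9.07 and 9.08 against 9.71 and 10.20. Chromosome 16 held 4 from Rbfox1 to Clec16a, with Clec16a at 8.88 and 8.95 against 9.83 and 9.64. Of 17640 overlapping windows of 20 genes, 13 had 5 such genes, 6 had 6 and 12103 had none. No source used here gives the place of the transgene.

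Away from these stretches the largest lower value was Gdpd3, a lysophospholipase D. It read 7.20 and 6.91 in NestinCre control and 10.57 and 9.72 in Flox control. The knockout arrays, at 10.36 and 10.69, were with Flox control. The difference was -3.09 (SE 0.31), 8.52-fold, on the gene's only probe set. Ro60, which binds small noncoding Y RNAs, was 7.13 and 7.62 against 9.42 and 9.59, with knockout at 9.42 and 9.25. Only 1 of its 4 probe sets was lower at an unadjusted p under 0.05. Wdfy1, an endosomal adaptor, was 9.10 and 9.31 against 10.75 and 10.27, with knockout at 10.54 and 10.11, and 3 of its 5 probe sets shared that. Wdfy1 belongs to a list of 10 measured genes known to vary among inbred strains. It was the 1 member at an unadjusted p under 0.05, near the shares of all genes, 7.07% lower and 2.08% higher. The list's median was -0.13, against -0.04 for all genes.

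Other lower genes placed the knockout arrays differently. Adat2, a subunit of the tRNA adenosine deaminase, was 6.53 and 6.65 against 8.24 and 8.19, with knockout at 7.16 and 6.64, nearer to NestinCre control. Nptx2, a synaptic pentraxin, was 8.41 and 8.80 against 9.46 and 9.73, with knockout at 8.96 and 8.82. The 3 probe sets of Hcfc2, a host cell factor, were divided. One was 8.19 and 8.09 against 9.02 and 9.46, with knockout between, while the brightest was higher in NestinCre control by 0.63 (SE 0.14) without overlap. Among genes with the smallest unadjusted p, Abi3bp (-0.56), Ikbip (-0.54), Myo16 (-0.47), Dnaic1 (-0.66) and the DNA repair gene Brca1 (-0.45) were lower on their brightest probe set. Brca1 was lower at an unadjusted p under 0.05 on 1 of its 4 probe sets. Ikbip was lower on 2 of 3, and its other probe set was at 0.50 (SE 0.33). Actl6a (-0.51, 1 of 3 probe sets lower at an unadjusted p under 0.05), Hnrnpab (-0.84, 1 of 7) and Fbxo36 (-0.45, 1 of 2) were named from a dimmer probe set, and the brightest differed by -0.01 for Actl6a, -0.06 for Hnrnpab and -0.26 for Fbxo36. For the 8 genes from Abi3bp to Fbxo36, SEs of the probe sets that named them were 0.06 to 0.11. They were larger for Adat2 (0.18), Nptx2 (0.16) and the lower Hcfc2 probe set (0.16).

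On the higher side, a probe set annotated Gm13306 was 10.50 and 10.39 against 8.23 and 8.42, a difference of 2.12 (SE 0.39). Its knockout arrays stood apart from each other, at 10.25 and 9.07. The probe set annotated Mir1931, which does not measure the mature miRNA, was 9.79 and 9.31 against 8.06 and 7.30. Kalrn, a signalling protein of dendritic spines, had 3 of 8 probe sets higher at an unadjusted p under 0.05. The largest was 10.12 and 10.32 against 9.15 and 9.09, with knockout at 10.34 and 10.03. The brightest, at 11.96 and 11.94 against 11.95 and 11.94, did not differ beyond its SE of 0.06. The corepressor subunit Tbl1xr1 (0.85, with 2 of 6 probe sets at the threshold), the phosphoprotein Arpp21 (0.82, with 2 of 5) and Ttc3 (0.69, with 1 of 7) were also named from a dimmer probe set. For these 4 genes the knockout arrays were with NestinCre control. Cpsf4l (0.91), the zinc transporter Slc39a2 (0.85), Tekt5 (0.68) and Shkbp1 (0.65) were higher on their brightest probe set. Dimmer probe sets named Snx10 (0.88, 1 of 2 higher at the threshold), Gle1 (0.71, 4 of 7), Fyco1 (0.67, 2 of 2), the splicing factor Sfswap (0.62, 2 of 6) and Zfp142 (0.54, 2 of 7). The brightest probe set was below 0 for Snx10 (-0.14), Gle1 (-0.09) and Zfp142 (-0.21). The 73 probe sets named for the size of their difference, their p or their place in gene order kept their direction under each alternative tried. Most were chosen for control groups without overlap, so leaving out 1 control array could not reverse them. Many alternatives change only the spread or the probe sets tested, not the difference.

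**Figure D3:**
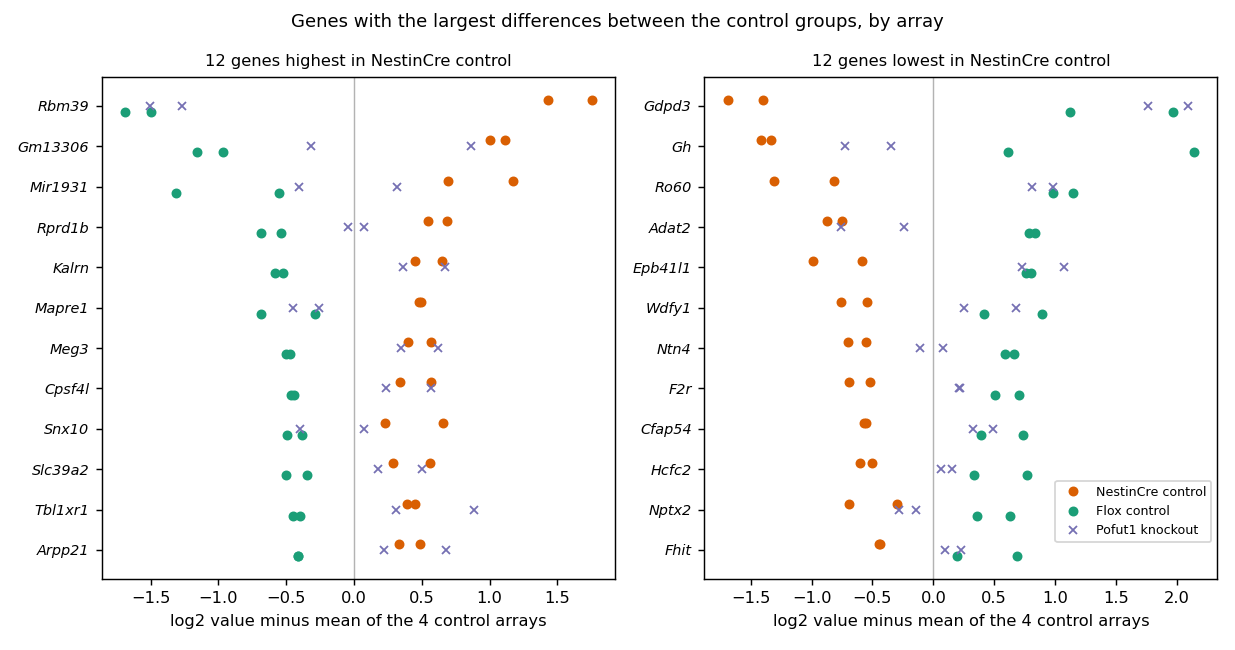
Each row is 1 gene, and each point is 1 array, placed by its log2 value minus the mean of the 4 control arrays (x axis). The left panel holds the 12 genes with the largest higher value in NestinCre control and the right panel the 12 with the largest lower value; control groups do not overlap by the choice of genes, and the knockout arrays (crosses) are with Flox control for Rbm39 and Gdpd3 and with NestinCre control for Kalrn and Meg3.

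Long noncoding RNAs retained in the nucleus stood on the higher side in NestinCre control. Of 12 measured, 10 were above 0 and 7 were higher at an unadjusted p under 0.05, against 2.08% of all genes, and the median was 0.21 against -0.04. Meg3, the maternally expressed RNA of the Dlk1-Dio3 imprinted locus, was higher on 11 of 11 probe sets at that threshold, by 0.29 to 0.97. Its brightest probe set read 12.42 and 12.35 against 12.22 and 11.97, and a dimmer one read 10.14 and 10.31 against 9.24 and 9.27. Neat1, the RNA scaffold of paraspeckles, was 10.82 and 10.59 against 10.17 and 10.17 on the brighter of its 2 probe sets, and the other did not follow. Malat1, a speckle RNA, was higher at that threshold on 5 of 7 probe sets, and the 7 differences were 0.17 to 0.73, with 12.73 and 12.62 against 12.51 and 12.39 on the brightest. Miat was 11.65 and 11.54 against 11.38 and 11.07. In these 4 genes both NestinCre control arrays were above both Flox control arrays, and the knockout arrays were at the NestinCre control level.

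Mirg and Rian, made from the same locus as Meg3, differed by 0.43 (SE 0.10) and 0.24 (SE 0.12). Mirg and Meg3 are both among the 7 noncoding RNAs counted above, so Mirg adds no separate count. The protein-coding Dlk1 of that locus overlapped, at 10.63 and 10.83 against 10.52 and 10.82. Other imprinted genes gave 1 higher and 1 lower of 19. The messenger RNAs of 2 nuclear speckle proteins were higher on each of their probe sets. Pnisr had 7 of 7, by 0.26 to 0.73, and Ccnl2 had 3 of 3, by 0.34 to 0.72. Together with Meg3 they were the 3 genes, of 4315 with at least 3 probe sets, for which each probe set was higher at an unadjusted p under 0.05. The 9 genes lower on each probe set included Gh, Bace2, Tmem176a, Jpt1, Ptges, Fam136a, Prss23 and Stx17. Among the array's controls, the murine B1 repeat moved with this group, at 11.76 and 11.59 against 11.41 and 11.47, with knockout at 11.78 and 11.68. The 3′ minus 5′ signal of beta-actin, a sign of RNA length, was 1.08 and 1.15 against 1.41 and 1.04, so it overlapped. Their part in the result was not tested. The count of 7 noncoding RNAs was 1 without NestinCre control replicate 1, 4 without NestinCre control replicate 2 and 2 without Flox control replicate 2. It was 3 after centring on array medians and 3 with sex as a covariate. The median was 0.16 to 0.29 with 1 control array left out at a time.

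Genes of 4 pituitary hormones or their subunits were lower in NestinCre control. Prl, prolactin, was 5.52 and 5.39 against 7.28 and 9.58, a difference of -2.97 (SE 0.74). Gh, growth hormone, was 5.92 and 5.84 against 7.87 and 9.40, a difference of -2.76 (SE 0.50), and each of its 4 probe sets was lower, from -2.76 to -1.36. The NestinCre control values lay near the bottom of the scale, where the lowest probe set reads 5.25. Cga, the subunit shared by glycoprotein hormones, was 5.75 and 5.65 against 6.43 and 6.96. Pomc, also made in hypothalamic neurons, was 8.05 and 7.77 against 8.46 and 8.94. The Flox control arrays differed from each other, with replicate 2 the higher in all 4 genes. The knockout arrays were low for Prl, at 5.66 and 5.77, and between the controls for Gh, at 6.91 and 6.53.

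These 4 were the only members of 10 measured pituitary genes at an unadjusted p under 0.05. Of all genes, 7.07% were lower and 2.08% higher at that threshold. Tshb (7.23 and 6.98 against 6.85 and 6.91) was 0.22 higher in NestinCre control, and Lhb, Fshb, Pitx1, Tbx19 and Ghrhr lay within 0.05 of 0. The count of 4 became 2 without NestinCre control replicate 2, and 0 on the female arrays alone. Without Flox control replicate 1 the difference of Prl was -4.12, with an adjusted p of 0.0489 by limma. Genes of the growth hormone and IGF axis in brain did not move with them: 0 of 23 had an unadjusted p under 0.05, beside the same shares of all genes. Their median was -0.03, against -0.04 for all genes.

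Cholesterol synthesis enzymes stood lower in NestinCre control as a group. All 19 measured members were at or below 0, although Hmgcs1 was level (12.84 and 12.82 against 12.84 and 12.83). The median was -0.23, and 8 were lower at an unadjusted p under 0.05, against 7.07% of all genes. Mvd, which makes isopentenyl diphosphate, was 8.57 and 8.37 against 9.03 and 8.85, and Sqle, squalene epoxidase, was 9.97 and 9.95 against 10.43 and 10.44. Both showed a difference of -0.47, with no overlap between the controls. Nsdhl (-0.26), Dhcr7 (-0.21), Msmo1 (-0.28), Cyp51 (-0.23), Hsd17b7 (-0.24) and Mvk (-0.42) completed the 8. The knockout arrays were near NestinCre control or below it for most of these, for example 10.81 and 10.79 for Dhcr7 against 10.88 and 10.89 in NestinCre control. No member passed adjustment. The count was 3 without either NestinCre control array, 4 without Flox control replicate 1 and 6 without Flox control replicate 2, with medians of -0.27 to -0.20. It was 4 with sex as a covariate and 5 with dim probe sets left out. The genes of myelinating oligodendrocytes, which use much of this sterol, had a median of -0.09 with 1 of 16 lower.

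Antigen presentation genes were lower too, but unevenly. Of 11 class I and processing genes, 5 were lower at an unadjusted p under 0.05, against 7.07% of all genes, with a median of -0.20 against -0.04. They were the heavy chains H2-D1 (9.73 and 9.55 against 9.96 and 9.94), H2-K1 and H2-M3, and the immunoproteasome subunits Psmb8 (7.44 and 7.29 against 7.72 and 7.68) and Psmb10. H2-K1, at 9.75 and 9.55 against 9.98 and 9.87, read close to H2-D1 on each control array, so the 2 may not be separate readings. Of the 9 probe sets of H2-D1, 6 were lower, 2 of them at the threshold. Psmb8 was lower on 1 of its 2 probe sets. B2m, the light chain, was level at 12.53 and 12.49 against 12.59 and 12.47, and so were the transporters Tap1 and Tap2. Without NestinCre control replicate 2, the male array, the median was -0.01 and the count 2. Without Flox control replicate 2 the count was 3, and on the female arrays alone it was 0. Of 9 class II genes, H2-DMa, H2-Eb1 and H2-Ab1 were lower, and the median of -0.34 had much spread between the Flox control arrays, as for H2-Aa with 8.17 and 7.83 against 9.06 and 8.30. Without NestinCre control replicate 2 no class II gene reached the threshold, without NestinCre control replicate 1 or Flox control replicate 1 the count was 2, and the median without Flox control replicate 1 was -0.15.

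Interferon-stimulated and reactive astrocyte genes shared members with that group. The share of all genes lower at the threshold was 7.07%. Of 21 interferon-stimulated genes 5 were lower, among them Ifit1 (7.66 and 7.49 against 8.04 and 8.09) and the guanylate-binding Gbp2 (6.95 and 6.93 against 7.38 and 7.28). Their median was -0.07, and it was 0.02 without NestinCre control replicate 2. The count was 2 without any one of the other 3 control arrays. For Ifit1 the knockout arrays, at 8.55 and 8.54, lay above both controls. Of 21 reactive astrocyte genes 7 were lower, with Gbp2, Psmb8 and H2-D1 among them and also Serpina3n (8.11 and 7.98 against 8.48 and 8.36), Cd44, S1pr3 and Osmr. The defining astrocyte filament gene Gfap differed by -0.11 (SE 0.09), with means of 11.06 against 11.18. The count was 3 without Flox control replicate 1. Microglia and macrophage genes gave 0 of 23 at the threshold, with a median of -0.08.

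**Figure D4:**
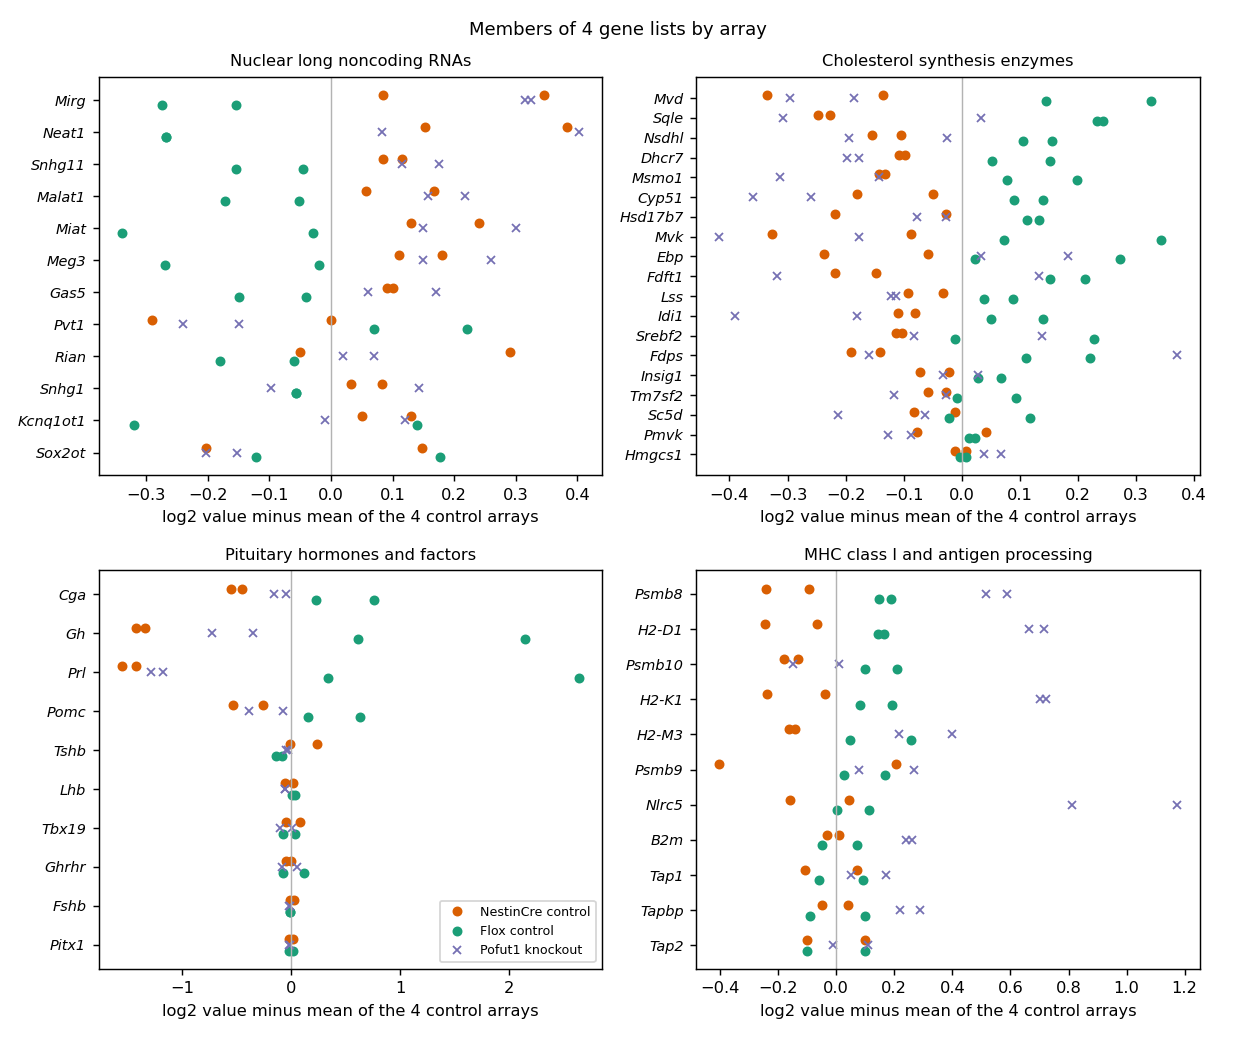
Each row is a measured member of 1 of 4 gene lists, and each point is 1 array, placed by its log2 value minus the mean of the 4 control arrays (x axis, scale differs by panel). Flox control arrays (green) are to the left of NestinCre control arrays (orange) for most nuclear noncoding RNAs and to the right for most cholesterol enzymes and for Cga, Gh, Prl and Pomc, and the knockout arrays (crosses) are above all control arrays for Psmb8, H2-D1 and H2-K1.

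Genes of brain regions showed small lower values in NestinCre control, with counts that changed with the arrays used. Of 23 genes of striatal projection neurons, 22 were below 0 and 5 were lower at an unadjusted p under 0.05, with a median of -0.15. Beside these and the counts of the other regions stand the 64.2% of all genes below 0 and the 7.07% lower. Ppp1r1b, which encodes DARPP-32, was 10.12 and 10.22 against 10.59 and 10.82, a difference of -0.53 (SE 0.15). Outside the 5, the dopamine receptor Drd2 was 8.64 and 9.01 against 9.62 and 9.31, and Drd1, at 10.40 and 10.93 against 10.60 and 10.92, overlapped. The striatal count of 5 was 0 without NestinCre control replicate 1, 3 without NestinCre control replicate 2, 1 without either Flox control array, 8 without either knockout array, and 0 with sex as a covariate. Cerebellar genes had 5 of 20 lower, among them Cbln3 and Tfap2b. Thalamic and habenular genes had 5 of 22 lower, among them Prkcd, and 1 higher, Tcf7l2. Midbrain and hindbrain genes had 6 of 28 lower. These were the serotonin transporter Slc6a4 (7.21 and 7.27 against 7.58 and 7.69), Hoxc4, Hoxa5, Hoxb5, Ddc and En1. Without NestinCre control replicate 1 these 3 counts of lower genes were 1, 0 and 3, and without Flox control replicate 1 they were 1, 1 and 3. Without NestinCre control replicate 2 the cerebellar count was 3. Cortical neuron genes gave 0 of 21 and hippocampal genes 1 of 21 in each direction.

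Among stress and growth genes, 5 of 21 p53 and DNA damage genes were lower at an unadjusted p under 0.05, against 7.07% of all genes, with a median of -0.15. They were Brca1 (7.28 and 7.34 against 7.80 and 7.71), the growth arrest genes Gadd45a, Gadd45b and Gadd45g, and Sesn1. Brca1 was lower at that threshold on 1 of its 4 probe sets. Cdkn1a (9.64 and 9.79 against 9.88 and 10.02), Mdm2 and Ccng1, which are also p53 targets, did not reach the threshold. The count was 2 without NestinCre control replicate 1 and 3 without NestinCre control replicate 2, and the median was -0.05 without Flox control replicate 2. Proliferation genes had 2 of 22 lower, near the share of all genes. They were Mcm6 at -0.58 (SE 0.12) and Aurka at -0.20 (SE 0.06).

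Over all 45 lists, 38 medians were below 0, as was the median gene, and no list member passed adjustment. Lower members at an unadjusted p under 0.05 numbered 1 of 19 for choroid plexus, 3 of 19 for meninges and fibroblasts, 0 of 18 for endothelium and 0 of 7 for blood, beside 7.07% of all genes. Ttr, the abundant product of choroid plexus, was 13.53 and 13.43 against 13.49 and 13.43. The muscle genes Ckm and Myh4 and the erythroid genes Hba-a1 and Alas2 were at 5.52 to 6.06 on every control array, near the bottom of the scale. The muscle actin Acta1 lay higher, at 7.73 and 7.77 against 7.96 and 8.18, a difference of -0.32 (SE 0.13) without overlap that did not reach the threshold.

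**Figure D5:**
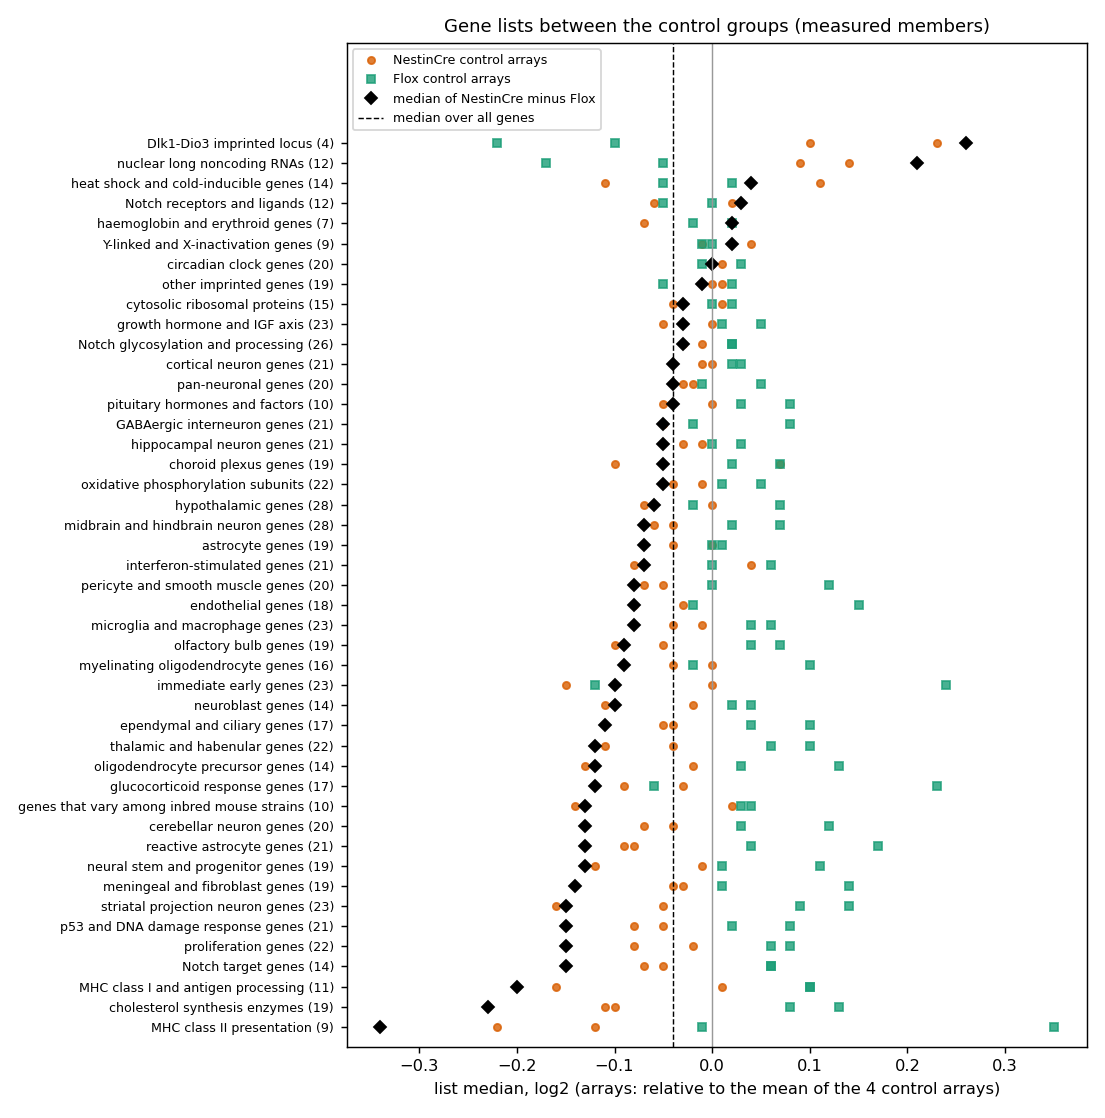
Each row is a gene list with its number of measured members in brackets. Diamonds give the list's median log2 difference of NestinCre control minus Flox control, orange circles and green squares the list's median on each control array relative to the mean of the 4 control arrays, and the dashed line the median over all genes at -0.04; nuclear noncoding RNAs are at 0.21 and cholesterol enzymes at -0.23.

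Sex divided the NestinCre control arrays. Xist was 12.37 and 6.31 against 11.85 and 11.79, and Eif2s3y was 5.52 and 11.08 against 5.44 and 5.38. Their differences of -2.48 (SE 2.66) and 2.89 (SE 2.55) therefore describe 1 array. With sex as a covariate 1697 probe sets were higher and 1770 lower at an unadjusted p under 0.05, and 0 passed adjustment.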

How the data were processed

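Per the labels' protocols, Trizol and a silica membrane were used to extract total RNA, and the Ovation system to amplify and label it with biotin. The deposited values are linear intensities, 1 per probe set and array, which the authors made with GCOS and RMA according to the submitters' processing notes, with no version or order. RMA gives all arrays a common distribution, which removes shifts shared by most probe sets and compresses differences of dim ones. The depth is not defined for arrays, and their number limits the precision.

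Log2 of each intensity was taken. Of 45101 probe sets, 64 controls were left out. The platform annotation gave 34945 of the rest 1 symbol, 932 several and 9160 none. Identifiers of 34741 matched the RefSeq gene table of GRCm38.p6, from which symbols and the order of genes were taken and no coordinates. No source used here names the build of the annotation.

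A mean per group was fitted to all 6 arrays with limma 3.58.1 (R 4.3.3; lmFit, eBayes without trend), with 3 residual degrees of freedom, and the NestinCre control mean was set against the Flox control mean. Benjamini-Hochberg adjustment covered 45037 probe sets at a threshold of 0.05. SE is limma's, for 2 arrays against 2. The script was tested on simulated data in which 200 probe sets were changed. A gene is its brightest probe set.

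Named genes were probe sets with 1 symbol, an unadjusted p under 0.01, groups that did not overlap and a brighter mean above the median of 7.35. From these came 12 per direction by size and 8 by p. Up to 8 genes per direction with at least 3 probe sets all one way, up to 4 per list, those of the 5 stretches, 8 neighbours of Pofut1, and Pofut1, Gh, Prl, Xist, Eif2s3y and Meg3 were added. Other list members were chosen after their values were seen. The members, the 45 lists and the rules were chosen with earlier results of these data known. The alternatives were a second quantile normalization, centring on array medians, leaving out dim probe sets, an intensity trend with and without robust fitting, the control arrays alone, a replicate block, testing 1 probe set per gene, log2 of the value plus 16, sex as a covariate, female arrays alone, leaving out X and Y probe sets, and leaving out each array.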

Additional observations from a re-analysis of the deposited data

How the results depend on the processing

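The number of probe sets past an adjusted p of 0.05 by limma was 0 under most alternatives. It was 1 with dim probe sets left out, 1 with an intensity trend and 6 with a trend and robust fit, and it ran from 0 to 2 with 1 array left out at a time. The 6 were Rbm39 (adjusted p 0.000874), Ro60 (0.0296), Epb41l1 (0.0346), Gdpd3 (0.0346) and 2 probe sets without a symbol. The 2, without Flox control replicate 1, were Prl and a probe set without a symbol at -4.72. At an unadjusted p under 0.05, 1373 probe sets were higher and 1203 lower with dim ones left out, and 402 and 1330 with 1 per gene, both of which test fewer probe sets. With 1 array left out the counts ran from 1647 to 2731 higher and from 1471 to 2729 lower. The count of 9 genes near Pofut1 was 2 on the female arrays alone and 3 to 8 with 1 array left out, with 3 without NestinCre control replicate 2. The female arrays alone differ from the setting without NestinCre control replicate 2 only in the spread, with 1 residual degree of freedom. The causes were not tested. Counts under the other alternatives stayed within 1.5 times. The groups share replicate numbers, but the deviations of same-numbered control arrays correlated at only 0.189, so the arrays share a number and were not treated as pairs. With the replicate block 0 probe sets passed adjustment, 2065 were higher and 2072 lower, and 6 genes near Pofut1 had an unadjusted p under 0.01. Of 1286 values of named probe sets under alternatives, 0 reversed and 6 passed adjustment. The lack of reversals was largely fixed by the choice of probe sets and by alternatives that leave the difference unchanged. The control arrays alone and the fits without 1 knockout array give the same result, which is therefore counted more than once. Of 808 list medians under alternatives, 92 moved by more than the spread between replicates. With 2 arrays per group, a small difference in any single gene cannot be told from array spread.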

Other observations

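Some lists set arrays of the same group apart rather than the groups. The immediate early genes, which respond within minutes to neuronal activity, had medians of 0.24 and -0.12 on the Flox control arrays and -0.15 and 0.00 on the NestinCre control arrays, relative to the mean of the 4 control arrays. Its member Fosb did separate the groups, at 7.89 and 7.82 in NestinCre control and 8.36 and 8.22 in Flox control. Of the 23 immediate early genes, 19 were below 0, and 2, Fosb and Jun, were lower at an unadjusted p under 0.05. The shares of all genes were 64.2% below 0 and 7.07% lower. Glucocorticoid response genes had medians of -0.06 and 0.23 on the Flox control arrays, and Fkbp5, an inducible chaperone of the glucocorticoid receptor, was 8.65 and 9.33 there against 8.86 and 8.88. None of the 17 reached an unadjusted p under 0.05. Circadian clock genes gave 0 of 20 with a median of 0.00.

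Rorb, a transcription factor of cortical layer 4, was 6.70 on Flox control replicate 1 and 9.32 on replicate 2, against 9.44 and 9.51 in NestinCre control, on 1 of 3 probe sets. Col1a1 was 10.44 on NestinCre control replicate 2 against 9.64 on replicate 1. Hbb-b2 was 7.74 on NestinCre control replicate 2 and 6.09 to 6.59 on the other control arrays, while Alas2 was level.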
